A study of Mus musculus with 12 samples.

Results

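Lars2, the gene of the mitochondrial leucyl-tRNA synthetase, was examined beside 8 other genes of the same enzyme family, Aars2, Ears2, Iars2, Nars2, Sars2, Tars2, Vars2 and Yars2. These 9 of the 21936 genes in the table were taken by their names, and each name stood on 1 entry. Lars2 was chosen by its count values in hADMSCs-Exo against REG, where it was among the genes most raised, so its values in that comparison are a description and carry no test. The livers came from male C57BL/6 mice (C57BL/6 J in the study's methods), bought at 6 weeks of age, and all of them had been given carbon tetrachloride (CCl4), a liver toxin, intraperitoneally at 1 mL/kg, 2 times a week for 8 weeks. LFG, the liver fibrosis group, was sacrificed at the end of CCl4. REG, the regression group, then received 200 μL of PBS, and hADMSCs-Exo received 250 μg of exosomes from human adipose-derived mesenchymal stem cells in 200 μL. Both were given by tail vein 2 times a week for 4 weeks. Each group had 3 libraries, and the 3 samples given whole hADMSCs were not analysed here. Mice without CCl4 were not analysed here. LFG libraries differed from both other groups in the time since CCl4 as well as in treatment, and these cannot be told apart.

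An aminoacyl-tRNA synthetase joins an amino acid to its tRNA. Mitochondria keep their own set of tRNAs for the few proteins of the respiratory chain that mitochondrial DNA encodes, and most of the enzymes that charge these tRNAs are made from nuclear genes whose names end in 2, translated in the cytosol and imported. The family has 2 structural classes. LARS2 (leucine), IARS2 (isoleucine), VARS2 (valine), EARS2 (glutamate) and YARS2 (tyrosine) belong to class I, and AARS2 (alanine), NARS2 (asparagine), SARS2 (serine) and TARS2 (threonine) to class II. Inherited defects of several of them cause human mitochondrial disease, and LARS2 is known for Perrault syndrome, with hearing loss and ovarian failure. Hepatocytes are rich in mitochondria.

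Lars2 lies on the plus strand of chromosome 9 (GRCm38, chr9:123366927-123462666). Its main coding transcript has 21 exons and 3894 bases, of which 2706 code for protein, whereas the length used for Lars2 in the table was 11089 bases, the union of all exons of its 9 annotated transcripts. No other annotated gene overlapped it. A stretch of 72 bases in the 3′ UTR, in exon 21, was found again in the long non-coding RNA Gm15564 of chromosome 16 with 1 differing base, and a second stretch of 50 bases was shared at 96% identity with AA474408. The 30 bases of the 72-base stretch around the difference are shown because reads from them could be placed on either transcript. The search covered GENCODE transcripts only, so other sources of such reads were not looked for. The capital marks the base that differs, and the window is chr9:123462085-123462114 of GRCm38.
Lars2: ggaacgtgagctgggAttagaccgtcgtga
Gm15564: ggaacgtgagctgggTttagaccgtcgtga
Gm15564 and AA474408 were not analysed here, and neither was a list of 8 genes known for rRNA-like sequence. The part of reads from these stretches in the Lars2 count was not tested.

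The start of the gene was compared with that of the other members in RefSeq promoter windows, 250 bases before to 50 after the start (GRCm38.p6), which all 9 genes had, Aars2 with 2 overlapping windows. Of 5 motifs searched on both strands, the YY1 motif ATGGCGGC was in Lars2, Tars2 and Yars2, 3 of 9 members, and in 2.24% of 32851 promoters. YY1 is a zinc-finger factor that binds many promoters. The 3 windows are shown because they share this motif although their genes differed in fold change, and the capitals mark it. They lie at chr9:123366677-123366976 (plus strand) for Lars2, at chr3:95754928-95755227 (minus strand) for Tars2 and at chr16:16302715-16303014 (plus strand) for Yars2.
Lars2: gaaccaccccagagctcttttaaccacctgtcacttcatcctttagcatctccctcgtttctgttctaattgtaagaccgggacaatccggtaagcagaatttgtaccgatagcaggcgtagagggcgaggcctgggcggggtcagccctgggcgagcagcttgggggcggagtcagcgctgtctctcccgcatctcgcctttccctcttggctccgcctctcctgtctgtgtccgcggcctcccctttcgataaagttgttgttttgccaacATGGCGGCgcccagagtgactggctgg
Tars2: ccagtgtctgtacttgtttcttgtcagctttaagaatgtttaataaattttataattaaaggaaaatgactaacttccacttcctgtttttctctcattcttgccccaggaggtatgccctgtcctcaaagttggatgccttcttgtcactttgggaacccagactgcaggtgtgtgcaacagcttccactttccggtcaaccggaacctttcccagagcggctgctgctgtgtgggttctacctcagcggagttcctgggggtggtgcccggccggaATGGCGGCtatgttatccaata
Yars2: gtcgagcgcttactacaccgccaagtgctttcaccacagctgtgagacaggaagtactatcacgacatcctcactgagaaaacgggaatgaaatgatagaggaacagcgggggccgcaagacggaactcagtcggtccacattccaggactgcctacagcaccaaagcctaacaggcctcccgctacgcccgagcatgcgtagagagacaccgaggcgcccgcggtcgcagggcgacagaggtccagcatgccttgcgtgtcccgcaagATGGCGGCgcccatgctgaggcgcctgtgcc
The motif began 24 bases after the start in Lars2, 29 after it in Tars2 and 20 after it in Yars2. In GENCODE the Tars2 gene spans chr3:95739976-95760206 on the minus strand, so the RefSeq start used for it lies within that gene. The GC box GGGCGG was in 6 members, among them Lars2, and in 35.7% of all promoters. The NRF1 motif was in Iars2 alone among the members and in 4.60% of all promoters. The E-box CACGTG was in Ears2 alone (7.15% of all), and the ETS motif CCGGAAGT was in no member (3.89% of all). In these 10 windows no match of one motif overlapped a match of another.

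Library totals ran from 13837445 to 19840917 counts. LFG 3 had the lowest total and stood apart from the other 8 libraries on the first principal component, which held 48.7% of the variance. Its score was 96.7, against −78.9 and −56.2 in the other LFG libraries and −17.7 to 17.0 in REG and hADMSCs-Exo. The 5 hepatocyte markers (Alb, Apoa1, Ttr, Cyp2e1 and Cps1) were high in all libraries, and no marker of the lists used was at 0 in any library. LFG 3 did not have the high level of fibrosis markers of the other LFG libraries. Its 6 markers of hepatic stellate cells and myofibroblasts summed to 17.3 CPM, against 876 and 521 in LFG 1 and LFG 2, and were below all REG and hADMSCs-Exo libraries (28.2 to 157). Among them Col3a1, a chain of fibrillar collagen, was at 2.96 log2 CPM in LFG 3 and at 9.10 and 8.36 in LFG 1 and LFG 2. Its 5 macrophage markers summed to 110 CPM, against 885 and 729. Their part in the results that turn on LFG 3 was not tested. In whole liver, fewer cells of a type and less RNA per cell cannot be told apart. The main results that rest on LFG are given with and without LFG 3.

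Per length of gene, Lars2 was the highest of the 9 genes in all 9 libraries. In REG its FPKM (counts relative to the length of the gene and the size of the library) was 24.2 ± 3.20 (SD, n = 3), followed by Iars2 at 6.55 ± 0.531 and Yars2 at 4.92 ± 0.159, and the libraries of these 3 genes did not overlap. Tars2 at 4.09 ± 0.392, Aars2 at 3.70 ± 0.438, Vars2 at 3.43 ± 0.428 and Sars2 at 3.27 ± 0.300 overlapped each with the next. Nars2 and Ears2 were lowest, at 1.77 ± 0.384 and 1.77 ± 0.094, and overlapped as well. In hADMSCs-Exo the order began again with Lars2 at 65.1 ± 6.26, Iars2 at 6.40 ± 0.488 and Yars2 at 4.92 ± 0.621 and ended with Nars2 at 1.93 ± 0.193 and Ears2 at 1.90 ± 0.136. In LFG the FPKM of Lars2 was 62.6 ± 43.2 and that of Iars2 9.19 ± 4.44. FPKM divides by the length in the table, the union of all exons, which exceeds the main coding transcript in each of the 9 genes, so the order between genes depends on that choice.

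Lars2 counts were 5803, 20368 and 7027 in LFG 1 to 3, 4428, 4633 and 6062 in REG 1 to 3, and 10642, 12889 and 12524 in hADMSCs-Exo 1 to 3. On the log2 CPM scale (CPM, counts relative to library size after TMM scaling, prior count 2), these were 7.93, 10.15 and 9.30 in LFG, 8.09, 7.99 and 8.33 in REG, and 9.30, 9.60 and 9.62 in hADMSCs-Exo. The 3 exosome-treated libraries were above the 3 REG libraries, with a gap wider than the spread within either group. The LFG libraries spanned both, and held the lowest (LFG 1) and the highest (LFG 2) Lars2 level of the 9 libraries. LFG 3, the library that stood apart on the first principal component, was between them. The range over the 9 libraries was 2.22 log2 units for Lars2, against 0.57 (Yars2) to 1.56 (Nars2) for the other 8. Of the 12759 other genes tested over all libraries, 2843 (22.3%) had a wider range than Lars2.

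**Figure D1:**
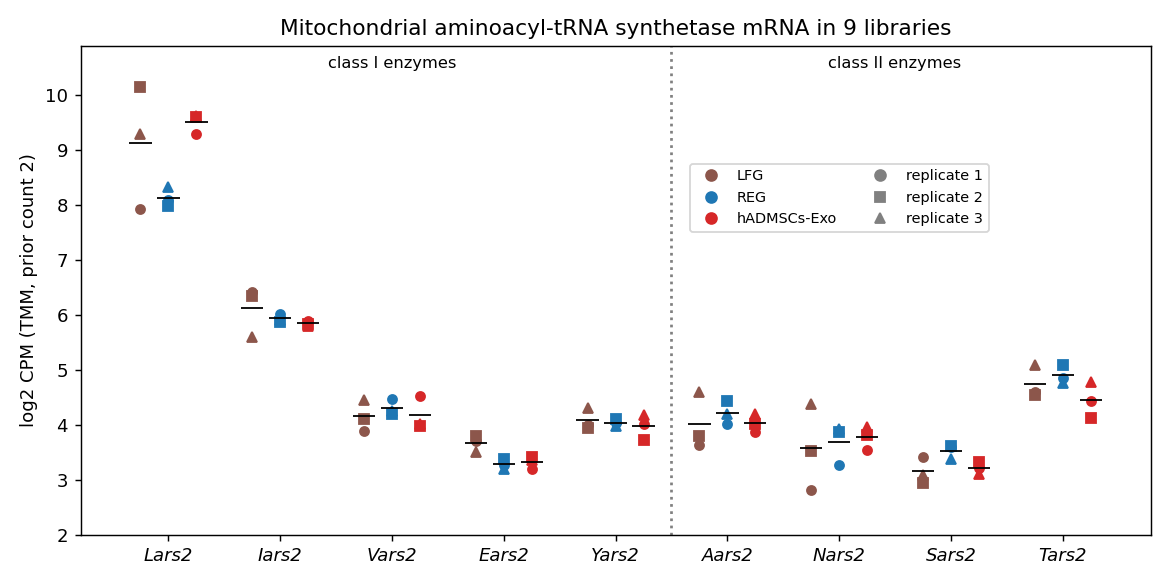
Level of each of the 9 genes in log2 CPM (vertical axis) by library, with colours for the groups, marker shapes for the replicates and black bars for the mean of 3. Lars2 lies between 7.93 and 10.15 and separates REG from hADMSCs-Exo, while each of the other genes stays within 1.56 log2 units.

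The first question was whether the difference of Lars2 from REG was shared by the other members. Lars2 was 9.51 ± 0.18 log2 CPM in hADMSCs-Exo and 8.14 ± 0.17 in REG (SD, n = 3), a fitted log2 fold change of 1.37 (SE 0.16), or 2.58-fold, which ranked 83 of 12337 genes. The other 8 genes had log2 fold changes from −0.44 (Tars2) to 0.06 (Nars2), with a median of −0.11, against a median of 0.008 over all genes tested. Of the other 8 genes, 1 had groups that did not overlap, Sars2 downwards (12.5%), against 15.5% of all genes tested. None of the other 8 was called differentially expressed (edgeR's quasi-likelihood test, adjusted p under 0.05 and absolute log2 fold change of at least 1), and 0.00811% of all genes were, that is 1 gene. By DESeq2 67 genes were called, by limma with voom 3 and without a filter on low counts 4, with 0 of the other 8 among them. At an unadjusted p under 0.05 stood 0 of the other 8 genes and 10.0% of all genes. This contrast chose Lars2, so no call is given for it here.

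Among the class I enzymes, Ears2, which charges tRNA with glutamate, had a log2 fold change of 0.04 (SE 0.16) between hADMSCs-Exo and REG. Its levels were 3.27, 3.38 and 3.19 log2 CPM in REG and 3.19, 3.41 and 3.37 in hADMSCs-Exo. Iars2, the isoleucine enzyme and the most abundant member after Lars2, was at 6.02, 5.87 and 5.92 in REG and at 5.89, 5.84 and 5.81 in hADMSCs-Exo, a log2 fold change of −0.10 (SE 0.11). The groups of both genes overlapped, and both log2 fold changes were smaller than their SE. Vars2, the valine enzyme, differed by −0.12 (SE 0.19) and Yars2, the tyrosine enzyme, by −0.06 (SE 0.16). Vars2 was at −0.32 without hADMSCs-Exo 1 and at −0.018 without hADMSCs-Exo 2, and Yars2 turned to 0.056 without hADMSCs-Exo 2. Iars2 shares 2034 exon bases with Rab3gap2 on the opposite strand, Ears2 shares 89 with Ubfd1 and Vars2 465 with Gm20483. Whether the counting used strand is not given in the sources used here, so reads of these stretches cannot be assigned with certainty.

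The class II enzymes held both the lowest (Tars2) and the highest (Nars2) log2 fold change of the members beside Lars2. The classes were not compared by a test. Sars2, the serine enzyme, was at 3.59, 3.61 and 3.37 log2 CPM in REG and at 3.21, 3.33 and 3.10 in hADMSCs-Exo. All exosome-treated libraries were below all REG libraries, and the log2 fold change was −0.32 (SE 0.16). Tars2, the threonine enzyme, was at 4.85, 5.08 and 4.77 in REG and at 4.43, 4.12 and 4.78 in hADMSCs-Exo. Only hADMSCs-Exo 3 reached the REG range, and the log2 fold change was −0.44 (SE 0.19). Without hADMSCs-Exo 3 it was −0.63, and without hADMSCs-Exo 2 it was −0.29. Aars2, the alanine enzyme, differed by −0.19 (SE 0.16) and Nars2, the asparagine enzyme, by 0.06 (SE 0.21). Aars2 was at −0.091 without REG 2 and at −0.29 without hADMSCs-Exo 3, and Nars2 turned below 0 when REG 1 (−0.11) or hADMSCs-Exo 3 (−0.032) was left out. The first exon of Nars2 shares 284 bases with C230038L03Rik on the opposite strand.

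**Figure D2:**
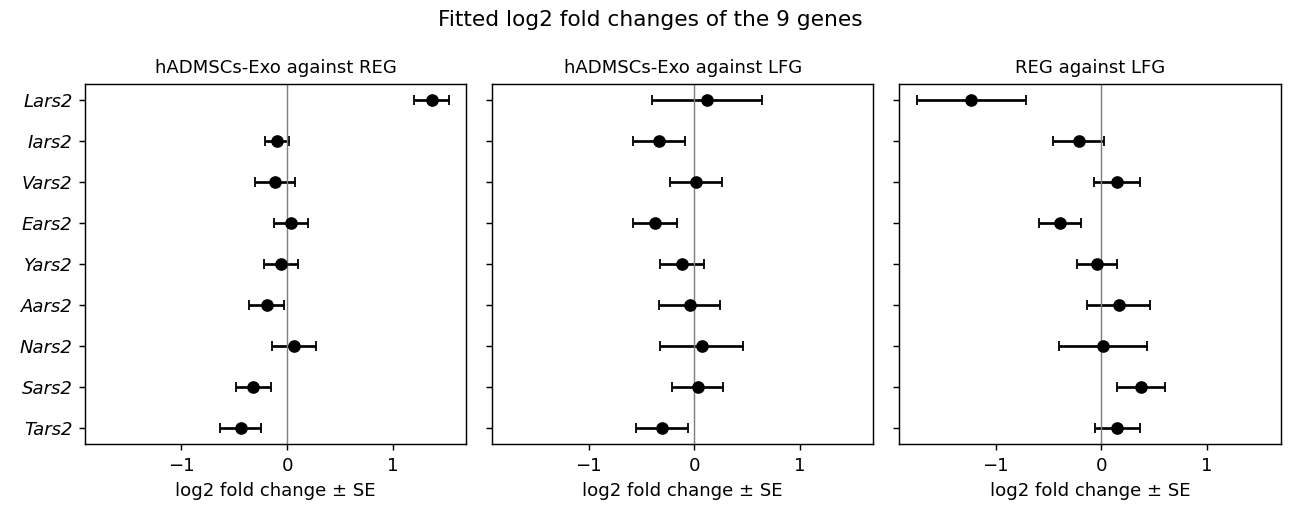
Fitted log2 fold change (horizontal axis) with its SE for the 9 genes in the 3 comparisons, each from the 6 libraries compared. Lars2 is at 1.37, 0.12 and −1.23, and the other 8 genes lie between −0.44 and 0.37.

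Within a library, the log2 CPM of Lars2 minus the mean of the other 8 genes cancels the scaling between libraries, apart from the prior count. This difference was 3.90, 3.67 and 4.13 in REG, 5.21, 5.57 and 5.45 in hADMSCs-Exo, and 3.87, 6.02 and 4.92 in LFG. The exosome-treated libraries were all above the REG libraries, and LFG spanned both. These are the REG and hADMSCs-Exo libraries that chose Lars2, so their separation here is no second result. The mean of the other 8 itself stayed between 4.03 and 4.38 in all 9 libraries. As a share of the summed FPKM of the 9 genes, Lars2 made up 41.4% to 49.2% in REG, 66.8% to 72.7% in hADMSCs-Exo and 42.3% to 77.4% in LFG.

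**Figure D3:**
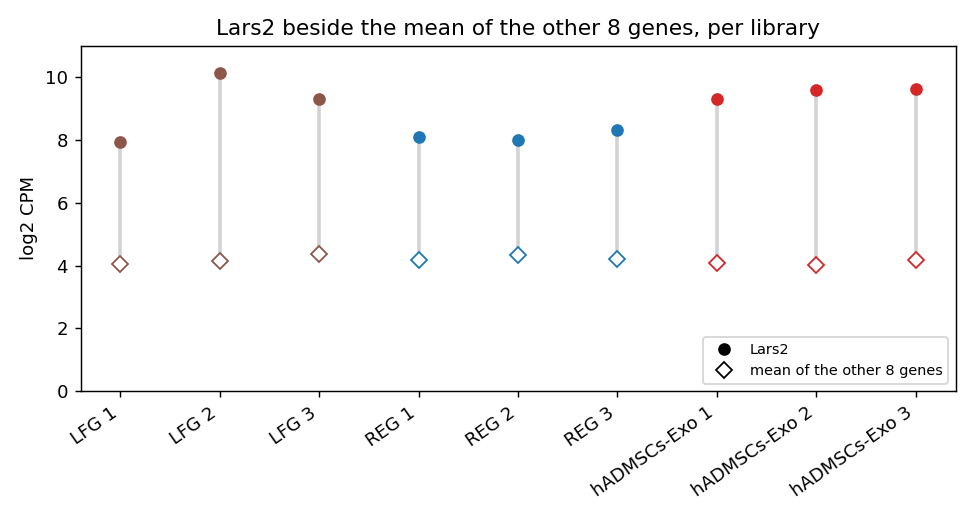
Log2 CPM (vertical axis) of Lars2 (filled circles) and the mean of the other 8 genes (open diamonds) in each of the 9 libraries, joined by grey lines. The mean of the other 8 stays between 4.03 and 4.38, while the line is 3.67 to 4.13 long in REG, 5.21 to 5.57 in hADMSCs-Exo and 3.87 to 6.02 in LFG.

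Levels of cell type markers differed between REG and hADMSCs-Exo together with Lars2. The summed CPM of the 5 hepatocyte markers was 161354 to 168371 in REG and 117993 to 135875 in hADMSCs-Exo, with 3 of 5 lower by their log2 fold change, Alb (−0.44), Apoa1 (−0.19) and Ttr (−0.24), and Cyp2e1 (0.67) and Cps1 (0.16) higher. The 6 markers of hepatic stellate cells and myofibroblasts (Lrat, Des, Acta2, Col1a1, Col3a1 and Pdgfrb) summed to 86.1 to 157 CPM in REG and 28.2 to 62.2 in hADMSCs-Exo, with 6 of 6 lower. The 4 cholangiocyte markers (Krt19, Krt7, Epcam and Sox9) summed to 13.5 to 16.3 CPM in REG and 9.57 to 10.4 in hADMSCs-Exo, with 3 of 4 lower. The sums of the remaining lists overlapped. The 5 macrophage markers were at 325 to 853 CPM in REG and 571 to 615 in hADMSCs-Exo, with 2 of 5 lower. The 4 markers of sinusoidal endothelium (Stab2, Lyve1, Kdr and Pecam1) were at 49.3 to 139.0 and 34.6 to 108 CPM, with 4 of 4 lower (−0.22 to −0.92). The 3 red blood cell markers were at 175 to 803 and 101 to 482 CPM, with 3 of 3 lower (−0.66 to −0.82). The 3 lymphocyte markers were at 18.7 to 32.1 and 28.2 to 44.3 CPM, with 1 of 3 lower. Their part in the Lars2 difference was not tested.

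The comparison of REG with LFG asked how the 9 genes stood after 4 weeks of spontaneous recovery. Lars2 was at 9.13 ± 1.12 log2 CPM in LFG and 8.14 ± 0.17 in REG, and its log2 fold change was −1.23 (SE 0.52). With an adjusted p of 0.441 by edgeR's quasi-likelihood test and a two-sided exact permutation p of 0.4, where 3 against 3 cannot go below 0.1, this was within the spread. LFG 2 and LFG 3 were above all REG libraries, and LFG 1 was below all of them. The log2 fold change was −1.63 without LFG 1, −0.62 without LFG 2 and −1.24 without LFG 3. Limma with voom and quality weights gave −1.54 with an adjusted p of 0.0361, while over the 13 alternatives the adjusted p ran from 0.0361 to 0.928. This comparison shares its REG libraries with the one that chose Lars2, so its p-values are not independent of that choice.

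None of the 9 genes was called in REG against LFG, and neither was any of the 12517 genes tested (0.00%), of which 11.3% had an unadjusted p under 0.05. DESeq2 called 239 genes, limma with voom 1285, and without LFG 3 edgeR called 1391, none of them a member except Lars2 by limma. Ears2 was the member whose groups did not overlap, as 18.9% of all genes did not. Its levels were 3.71, 3.80 and 3.51 log2 CPM in LFG against 3.27, 3.38 and 3.19 in REG, with a log2 fold change of −0.39 (SE 0.20) and an adjusted p of 0.496 by edgeR, and with −0.44 (adjusted p = 0.130) without LFG 3. Sars2 had the highest log2 fold change of the 9 genes, 0.37 (SE 0.23, adjusted p = 0.564 by edgeR), and was at 0.37 without LFG 3 as well. In that fit Nars2 and Aars2 were at 0.56, Tars2 at 0.39, Vars2 at 0.35 and Iars2 at −0.40. The other 8 genes had a median of 0.08, against −0.07 over all genes, and their median was 0.36 without LFG 3, −0.041 without LFG 1 and −0.016 without LFG 2.

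In hADMSCs-Exo against LFG, Lars2 had a log2 fold change of 0.12 (SE 0.52, adjusted p = 0.977 by edgeR; exact permutation p = 0.7). The value turned to −0.27 without LFG 1 and became 0.75 without LFG 2, so no direction was detectable with these 3 LFG libraries. Without LFG 3 it was 0.10. The hADMSCs-Exo libraries are those of the comparison that chose Lars2, so these p-values are not independent of that choice either. Replicate numbers deviated together in this comparison, and with the replicate number as a block Lars2 was at 0.37 (SE 0.43, adjusted p = 0.892 by edgeR). Tars2 was lower in hADMSCs-Exo than in the LFG library of the same number for 3 of 3 numbers (4.43 and 4.59, 4.12 and 4.54, 4.78 and 5.10 log2 CPM), with a blocked log2 fold change of −0.31 (SE 0.16, adjusted p = 0.823 by edgeR). Ears2 was lower for each number as well. No label pairs these libraries, and the share of all genes with such an order was not computed. Without the block Tars2 was at −0.30, with −0.08 when LFG 3 was left out and −0.48 when hADMSCs-Exo 3 was. None of the 9 genes was called and none had an unadjusted p under 0.05, beside 0.00% and 5.98% of the 12489 genes tested. DESeq2 called 60 genes and limma with voom 1 gene, no member among them. Without LFG 3, 773 genes were called and again no member. Ears2 was lower in all exosome-treated libraries (3.19, 3.41 and 3.37 log2 CPM) than in all LFG libraries, with a log2 fold change of −0.37 (SE 0.21, adjusted p = 0.825 by edgeR), where 12.3% of all genes did not overlap. Without LFG 3 it was −0.43 (adjusted p = 0.185 by edgeR). In that fit Iars2 was further from 0, at −0.52 (SE 0.15, adjusted p = 0.0729 by edgeR), and Nars2 was at 0.59 (adjusted p = 0.194 by edgeR). With all 3 LFG libraries Iars2 was at −0.33 and Nars2 at 0.07. The medians of the other 8 genes and of all genes were −0.08 and −0.06, and that of the other 8 was 0.022 without LFG 3, −0.20 without LFG 1 and −0.17 without LFG 2.

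**Figure D4:**
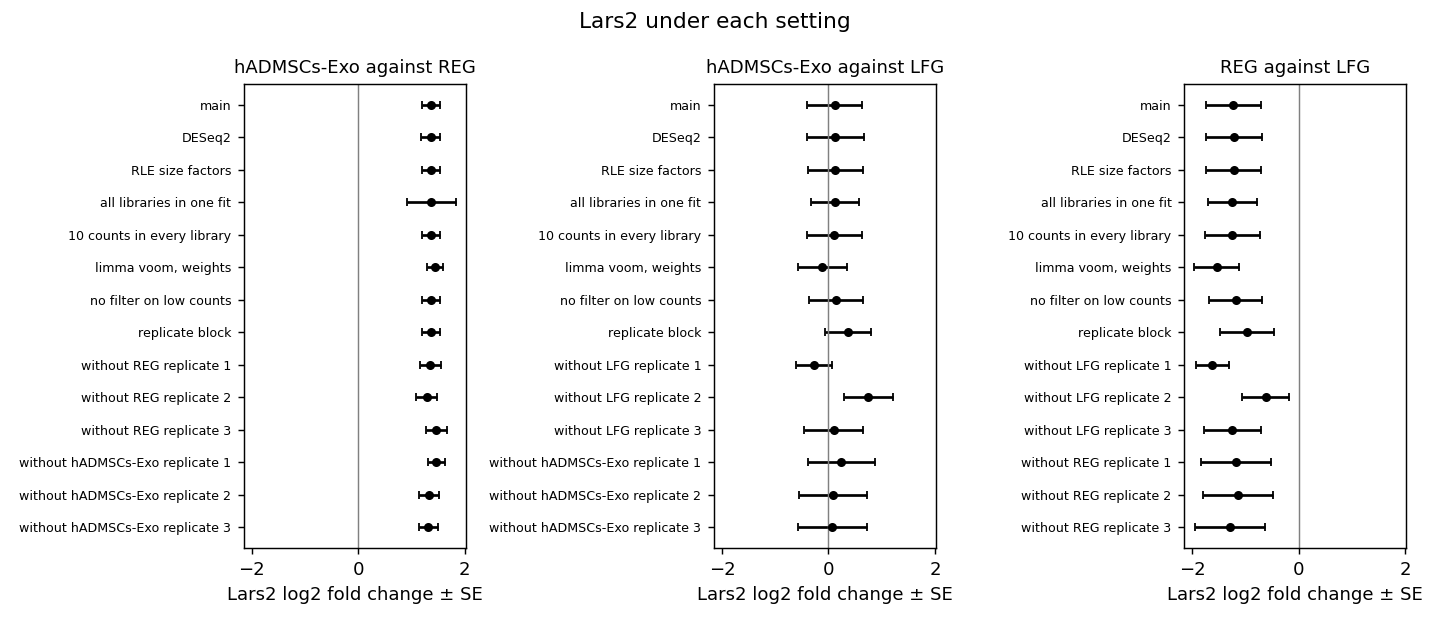
Lars2 log2 fold change (horizontal axis) with its SE in the 3 comparisons, as reported (main) and under each alternative setting. Against REG it stays between 1.29 and 1.47 in hADMSCs-Exo, while in the comparisons with LFG it runs from −0.27 to 0.75 and from −1.63 to −0.62, with the ends set by LFG 1 and LFG 2.

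The cytosolic leucyl-tRNA synthetase gene, Lars, charges leucine to the tRNAs of cytosolic translation. It was at 5.13, 5.04 and 4.98 log2 CPM in REG and at 5.22, 4.74 and 4.96 in hADMSCs-Exo. These groups overlapped, and the log2 fold change was −0.06 (SE 0.16, adjusted p = 0.914 by edgeR). The cytosolic counterparts of the other members lay between −0.34 (Sars) and 0.19 (Aars) in the same comparison. Of 22 genes for cytosolic synthetases and the scaffold proteins of their complex, 0 were higher and 1 was lower at an unadjusted p under 0.05, Cars (cysteine) with −0.36, against 10.0% of all genes, and 0 were called. Of the 22, 6 (27.3%) had groups that did not overlap, against 15.5% of all genes. The 22 had a median of −0.07.

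The remaining genes for charging mitochondrial tRNAs, 13 with the amidotransferase that makes Gln-tRNA from Glu-tRNA, had a median log2 fold change of −0.14 in hADMSCs-Exo against REG, between −0.53 (Pars2) and 0.29 (Mars2). None was called, and 1 had an unadjusted p under 0.05, beside 10.0% of all genes. This was Wars2, the tryptophan enzyme, at 2.44, 2.61 and 2.48 log2 CPM in REG and 2.01, 2.07 and 2.01 in hADMSCs-Exo, a log2 fold change of −0.49 (SE 0.20, adjusted p = 0.486 by edgeR). In both comparisons with LFG the gene with the smallest p of this list was Rars2, the arginine enzyme, with 0.57 for hADMSCs-Exo and 0.55 for REG, with an adjusted p of 0.805 and 0.402 by edgeR. It was 1 of 4 genes of the 13 (30.8%) whose groups did not overlap in each, beside 12.3% and 18.9% of all genes. Without LFG 3 they were 0.62 and 0.61. Those 2 comparisons share the LFG libraries.

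The products of these enzymes serve the mitochondrial ribosome. Of 77 tested genes for its proteins, 12 had a log2 fold change above 0 and 65 below it in hADMSCs-Exo against REG, with a median of −0.15. None was called, and 5 (6.49%) had an unadjusted p under 0.05, which is below the 10.0% of all genes. Mrpl18 was higher, by 0.53 (SE 0.14), and Mrps5 and Mrpl50 were lower, at −0.38 (SE 0.12) and −0.37 (SE 0.14), with adjusted p of 0.394, 0.409 and 0.463 by edgeR. Of 28 tested mitochondrial translation and tRNA maturation factors, 0 were called and 3 (10.7%) had an unadjusted p under 0.05, near the 10.0% of all genes. These were the release factor gene Mtrf1 (−0.54), the tRNA modification gene Mto1 (−0.42) and Tufm, the mitochondrial elongation factor Tu (−0.28), all lower. They were among 6 of the 28 (21.4%) whose groups did not overlap, beside 15.5% of all genes. Of the 11 tested protein genes of mitochondrial DNA, 1 (9.09%) had an unadjusted p under 0.05, beside 10.0% of all genes. This was mt-Atp6, a subunit of ATP synthase, with −0.73 (SE 0.15, adjusted p = 0.358 by edgeR), and the median of the 11 was −0.11.

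Against LFG, edgeR and DESeq2 called no gene of these lists with all 3 LFG libraries, while limma with voom called 2 of the 77 ribosomal protein genes in REG against LFG, Mrpl43 and Mrps16 (2.60%, beside 10.3% of all genes). Several of their medians depended on LFG 3. In REG against LFG the 11 genes of mitochondrial DNA had a median log2 fold change of −0.34, which turned to 0.52 without LFG 3. The summed CPM of the 11 genes was 77215 in LFG 3, against 29056 and 38212 in LFG 1 and LFG 2 and 42317 to 45646 in REG, and in hADMSCs-Exo it was 35848 to 43562. In hADMSCs-Exo against LFG the median turned likewise, from −0.47 to 0.33.

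The 77 ribosomal protein genes had a median of 0.10 in REG against LFG and of 0.53 without LFG 3, where 46 of the 77 were higher and 0 lower at an unadjusted p under 0.05, beside 37.3% of all genes. EdgeR without LFG 3 called Mrpl14, Mrpl43 and Mrps16, 3 of the 77 (3.90%), which is below the 10.7% of all genes. In hADMSCs-Exo against LFG their median turned from −0.12 to 0.35 without LFG 3, with 26 higher and 0 lower, beside 28.5% of all genes. The 28 translation factors had medians of 0.19 in REG and 0.05 in hADMSCs-Exo against LFG, and of 0.30 and 0.25 without LFG 3, where edgeR called Hsd17b10 in both, 1 of the 28 (3.57%), beside 10.7% and 5.97% of all genes. With all 3 LFG libraries, 3 of the 28 were above 0 at an unadjusted p under 0.05 in REG against LFG, a share of 10.7% beside 11.3% of all genes. These were Mtrf1 (0.92), Tfb1m (0.77), a mitochondrial rRNA methyltransferase, and Gtpbp3 (0.57), a tRNA modification GTPase. The 22 cytosolic synthetase genes had medians of −0.03 in REG and −0.18 in hADMSCs-Exo, and of 0.11 and 0.015 without LFG 3.

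**Figure D5:**
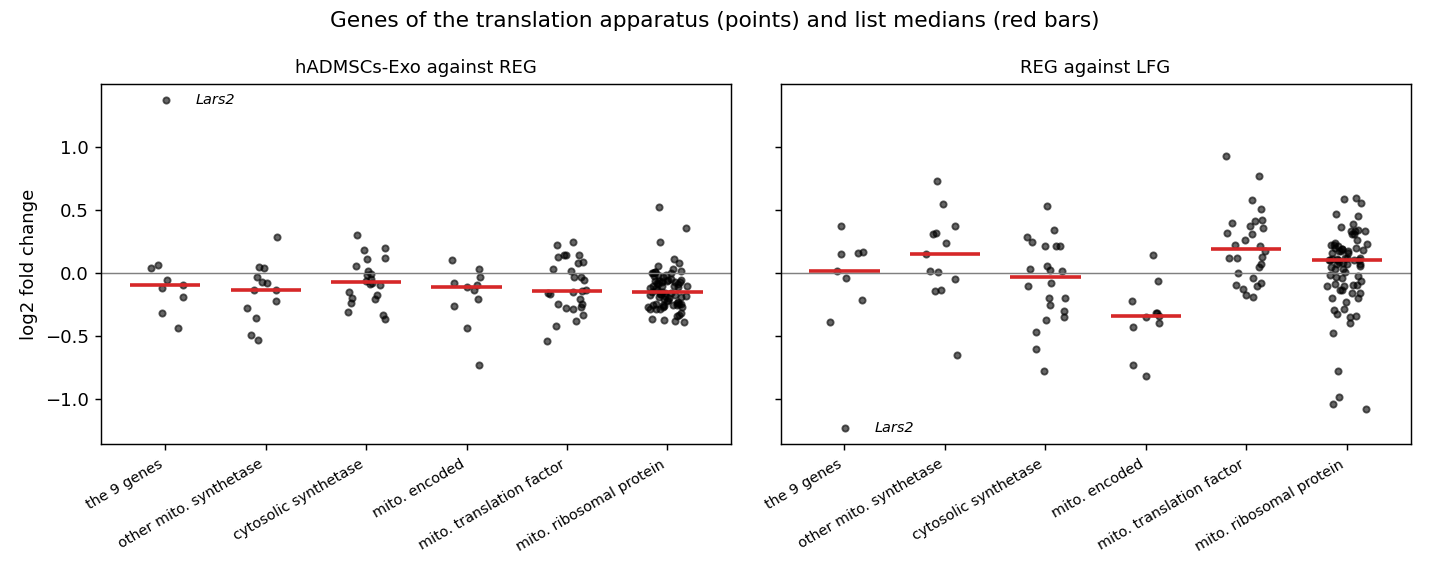
Log2 fold changes (vertical axis) of the 9 genes and of 5 lists of the translation apparatus, as points for genes and red bars for medians, in hADMSCs-Exo against REG and in REG against LFG. In the first panel all list medians lie between −0.15 and −0.07 and Lars2 stands at 1.37, and in the second, with all 3 LFG libraries, Lars2 stands at −1.23.

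The genes whose log2 CPM followed Lars2 most closely over the 9 libraries were Ccdc157 (r = 0.90), D16Ertd472e (0.90), Gtpbp2 (0.90), Trp53bp2 (0.89) and Zdhhc20 (0.89), out of 12759. These correlations describe 9 libraries of 3 groups under a common scaling, and the groups set part of each. Ccdc157 was at 3.90, 4.72 and 4.74 in LFG, 3.78, 3.67 and 4.23 in REG and 4.28, 4.44 and 4.61 in hADMSCs-Exo. D16Ertd472e was at 3.38, 4.14 and 3.78 in LFG, 2.95, 2.99 and 3.36 in REG and 4.08, 3.80 and 3.76 in hADMSCs-Exo. As for Lars2, the exosome-treated libraries were above the REG libraries in both genes, and LFG 1 was the lowest of the LFG libraries. Both genes were picked for their likeness to Lars2 in these libraries, so the shared order is no separate result. Among the other 8 members r ran from −0.89 (Sars2, rank 12751) to 0.39 (Nars2, rank 2026), and for Lars it was −0.67. Sars2 was highest in REG 2 and lowest in LFG 2, the library with the most Lars2.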

How the data were processed

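Mouse liver RNA of 9 samples was extracted with Trizol and sequenced by the authors on an Illumina instrument after an NEBNext Ultra library preparation. The submitters' processing notes name cutadapt 1.15, HISAT2 2.0.5, HTSeq 0.9.1, DESeq 1.30.0 and GRCm38. The use of strand is not given in the sources used here. The authors deposited raw counts per gene, which were tested, and FPKM, which equal the counts scaled by length and library total and were used for levels between genes. The exosome-treated libraries, abbreviated in the table by cell source and an E, were matched to the hADMSCs-Exo samples through the name of the group in the study's heat map.

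Counts were fitted with edgeR 4.0.16 (R 4.3.3; TMM, its filter on low counts, quasi-likelihood test, two-sided, Benjamini-Hochberg adjustment) on the 6 libraries compared. The procedure was tested on simulated data, where it missed most changes of a log2 fold change of 1 in each comparison. A gene without a call is thus not shown to be unchanged. Alternatives were RLE size factors, DESeq2 1.42.0, limma 3.58.1 with voom and quality weights, other filters, 1 fit of all 9 libraries, a block for the replicate number, and fits that left out 1 library each. No label says that replicates were separate animals, so p-values measure the spread between these libraries. Shared sequence was searched with BLAST 2.17.0 in GENCODE transcripts (at least 50 bases and 95% identity). Exact tests used scipy 1.17.1, with pandas 2.3.3 and matplotlib 3.10.9 for tables and plots. Counts limit the precision least for Lars2 (at least 4428 per library) and most for Sars2 (at least 94). The members and lists were chosen with earlier results of these data known. Genes named are the 9 members, up to 3 per list with the smallest p, cytosolic counterparts and the 5 genes most like Lars2, and list extremes were named after their values were seen.

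Replicate numbers in hADMSCs-Exo and LFG deviated together to a small degree (correlations of deviations 0.107, 0.313 and 0.191). No label pairs these libraries, so the blocked fit of this comparison is given beside the main fit and does not replace it. In hADMSCs-Exo and REG (0.143, −0.007 and 0.027) and in REG and LFG (0.423, −0.207 and 0.315) only some did, and there the block is given among the alternatives only.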

Additional observations from a re-analysis of the deposited data

How the results depend on the processing

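Against REG, the log2 fold change of Lars2 in hADMSCs-Exo was 1.29 to 1.47 under all 13 alternatives. This contrast chose Lars2 and its groups did not overlap, so the kept direction is no test. Genes called numbered 67 by DESeq2, 3 by limma with voom, 4 without a filter on low counts and 0 with all libraries in one fit, against 1, with 1 member among the first 3 each, Lars2, which was chosen by this comparison, so that these calls are no test. Leaving out 1 library also turned Ears2 (lowest −0.0062), Nars2 (lowest −0.11) and Yars2 (highest 0.056) across 0, and gave 0 to 1 called genes, with 0 without REG 2 and without hADMSCs-Exo 3. In hADMSCs-Exo against LFG, DESeq2 called 60 genes, limma with voom 1 and all libraries in one fit 1, against 0. Limma turned Lars2 to −0.12, Aars2 to 0.26 and Yars2 to 0.0090. Leaving out 1 library gave 0 to 773 called genes (773 without LFG 3) and ranges of −0.27 to 0.75 for Lars2, −0.22 to 0.33 for Aars2, −0.23 to 0.59 for Nars2, −0.064 to 0.20 for Sars2, −0.16 to 0.20 for Vars2 and −0.21 to 0.026 for Yars2. Iars2 (−0.52 to −0.18) and Tars2 (−0.48 to −0.082) moved without crossing 0. In REG against LFG, DESeq2 called 239 genes and limma 1285, with 1 member (Lars2, −1.54), Yars2 at 0.10 and a median of the other 8 of 0.31. Yars2 was at 0.0082 without a filter on low counts. Leaving out 1 library gave 0 to 1391 called genes (1391 without LFG 3), and ranges of −1.63 to −0.62 for Lars2, −0.013 to 0.56 for Aars2, −0.29 to 0.56 for Nars2, −0.11 to 0.11 for Yars2 and −0.041 to 0.36 for the median of the other 8. Iars2 (−0.40 to −0.069), Tars2 (0.047 to 0.39) and Vars2 (0.031 to 0.35) moved without crossing 0.

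With the replicate number as a block, Lars2 was at 1.37, 0.37 and −0.98 in the 3 comparisons and Aars2 turned to 0.0086 in hADMSCs-Exo against LFG. The block changed no call of a member and no count of called genes. The cause of these changes was not tested. In REG against LFG the SE of the other 8 members was 0.19 to 0.42 on the log2 scale, so a member without a call there is not shown to be alike in the groups. The list medians without LFG 3 and the list calls by other tools and without LFG 3 were computed after seeing the data.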
